A study of Mus musculus with 8 samples.

Results

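Sterol and fatty acid synthesis genes were followed in mouse embryonic stem (ES) cells of 2 genotypes, cultured in the presence of leukemia inhibitory factor (LIF), a cytokine that holds such cells in the undifferentiated state, or after 6 days in its absence. The set was defined by name, with earlier results of these data known, as 30 enzymes and regulators of cholesterol and fatty acid synthesis. It comprised every probe set whose only gene symbol in the array's annotation was one of them. This gave 67 of the 45101 probe sets on the array and 29 of the 18193 genes with such a probe set. Acat2, the cytosolic thiolase that feeds the sterol pathway, had no probe set under its name and was not analysed here. The 29 genes were split into a sterol arm of 17, a fatty acid arm of 7, and 5 genes for sterol sensing and transport.

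Cholesterol is built from acetyl-CoA by way of mevalonate, isoprenoid diphosphates, squalene and lanosterol, and fatty acids are built from the same acetyl-CoA by carboxylation, chain extension and desaturation. Most of these genes are targets of the sterol regulatory element-binding proteins (SREBPs), membrane-bound transcription factors that the escort protein SCAP carries out of the endoplasmic reticulum when sterols are scarce and that INSIG proteins hold back when sterols are plentiful. SREBP2, from Srebf2, acts mainly on sterol genes and the SREBP1c form from Srebf1 mainly on fatty acid genes. Proliferating stem cells draw on both pathways for new membrane.

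The 4 groups were Rbp2f/f with LIF, Rbp2-/- with LIF, Rbp2f/f without LIF and Rbp2-/- without LIF, with 2 arrays each. RBP2 (retinoblastoma-binding protein 2, now KDM5A) removes methyl groups from lysine 4 of histone H3, f/f marks copies flanked by recombination sites and -/- deleted copies. The labels give no strain, clone or culture for any sample and do not say how the deletion was made, so a difference between genotypes is a difference between these cells. The replicates are called biological in the labels without naming separate cultures or clones, so each p-value covers the spread among these arrays, which may be partly technical.

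The arrays were not all at the same level as deposited. The 2% trimmed mean was 77.5 in replicate 2 of Rbp2-/- with LIF against 110.5 to 128.4 in the others, and all arrays were therefore quantile normalised. Replicate 1 of Rbp2f/f with LIF had a ratio of 3' to 5' Gapdh signal, a control for RNA and labelling quality, of 1.11 against 0.78 to 0.85 elsewhere. Kdm5a read 134 and 168 with LIF and 209.6 and 225 without it in Rbp2f/f, and 34.1 and 43.5 with LIF and 95.0 and 66.8 without it in Rbp2-/-, so that every Rbp2-/- array was below both Rbp2f/f arrays of its medium (-1.60 ± 0.22, limma adjusted p = 0.071, and -1.28 ± 0.22, limma adjusted p = 0.11). The labels do not give the deleted segment, so the place of this probe set relative to it was not examined. The 9 ES cell markers examined, among them Pou5f1, Nanog and Sox2, summed to between 18414 and 22918 with LIF and between 3458 and 4687 without. Feeder fibroblast markers summed to 709 and 480 with LIF and 2276 and 2058 without it in Rbp2f/f, and to 1188 and 1526 with LIF and 5138 and 2215 without it in Rbp2-/-. Of these 9 markers 7 passed the intensity filter, Postn through its arrays without LIF. The sums did not hold for every marker, and Col1a1 made up 2766 of the 5138. Without LIF, 4 of the 7 were higher in Rbp2-/- than in Rbp2f/f and 3 lower, among them Col3a1, with means of 146 and 403. Dcn and Lum, below the filter, also had lower means there, 16.9 against 57.8 and 20.8 against 47. Thy1 had a lower mean without LIF than with it in both genotypes. The 9 extraembryonic endoderm markers summed to 195 to 260 with LIF and 598 to 773 without, and 4 passed the filter, Sox17 through its arrays without LIF. Of the other 5, Sox7, Afp, Apoa1 and Apob read at most 31.2 on every array, and Ttr read 0.5 to 8.2 with LIF and 5.4 to 62.9 without. The part of such cells in the results that follow was not tested, and in bulk RNA fewer cells of a type and less RNA per cell cannot be told apart.

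Withdrawal of LIF from Rbp2-/- cells was accompanied by higher expression of much of the sterol pathway. Of the 29 genes, 11 rose and 0 fell (limma adjusted p under 0.05), where 7.27% of the 10916 genes tested rose and 8.24% fell. In the sterol arm 8 of 17 rose, namely Hmgcs1, Idi1, Sqle, Cyp51, Msmo1, Nsdhl, Sc5d and Dhcr7, and 16 of 17 had a difference above 0, as had 50% of all genes. Arrays without LIF lay wholly above those with it for 20 of the 29 and wholly below for 1, where 28.9% and 29.9% of all genes did so. The median difference of the arm was 0.80 on the log2 scale, against 0 for all genes tested. Intensities are normalised values on a linear scale, each change is a difference of log2(intensity + 16) with its standard error, and a fold on that scale understates the change of dim genes.

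**Figure D1:**
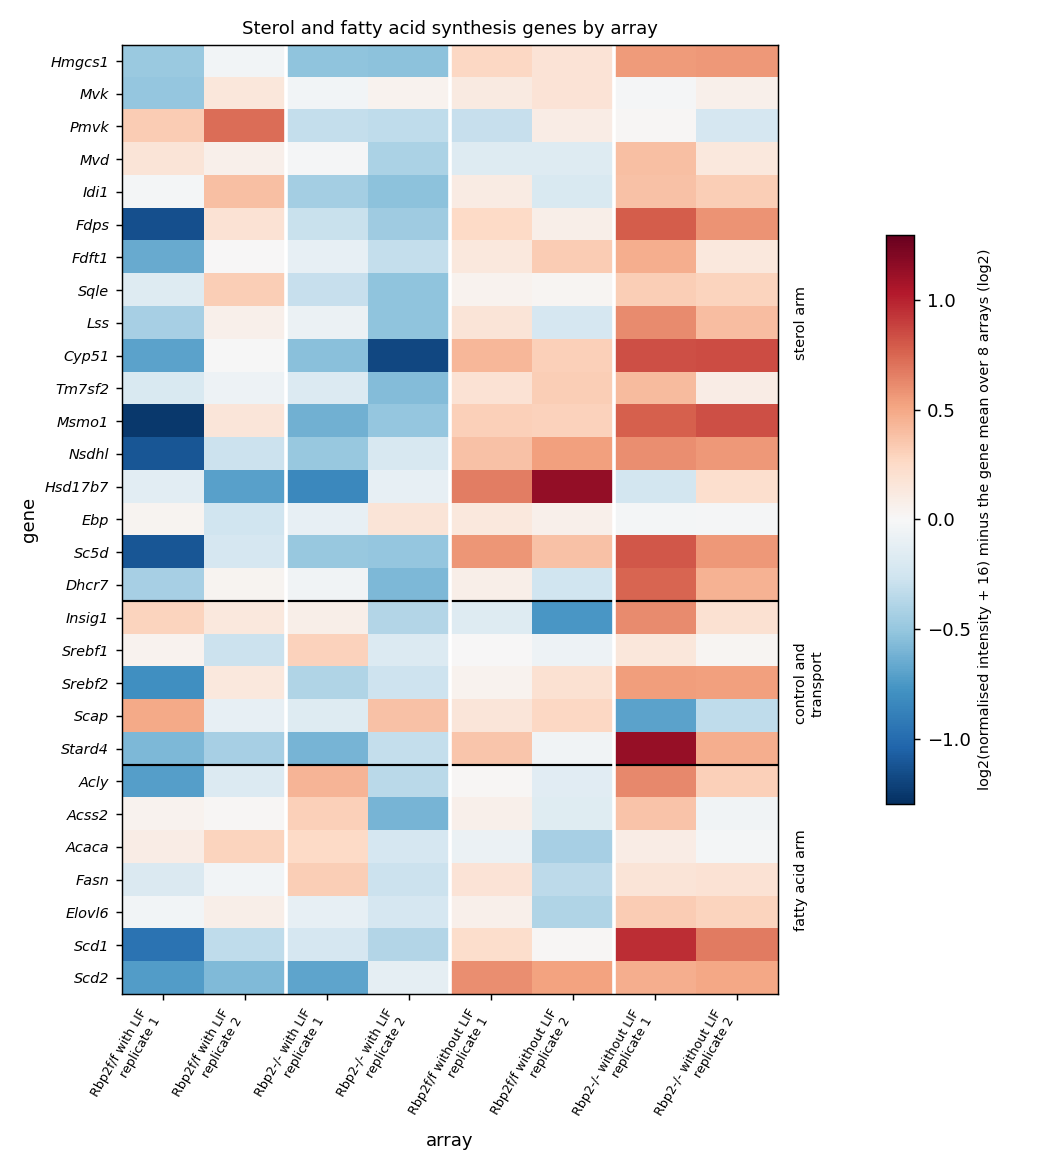
Heat map of the 29 genes (rows, ordered by role) on the 8 arrays (columns, in pairs by group), coloured by log2(normalised intensity + 16) minus the mean of that gene over the arrays. Most sterol arm rows are red in both Rbp2-/- arrays without LIF and blue in both Rbp2-/- arrays with LIF. Replicate 1 of Rbp2f/f with LIF is blue in Fdps, Msmo1 and Sc5d, where replicate 2 is pale red in Fdps and Msmo1 and paler blue in Sc5d.

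Among the mevalonate enzymes, Hmgcs1, the synthase that makes HMG-CoA (probe set 1433443_a_at), read 1952 and 1937 in Rbp2-/- with LIF and 4142 and 4167 without. Both arrays without LIF lay far above both with it, and the difference was 1.09 ± 0.15, a 2.13-fold rise (limma adjusted p = 0.002). With intact Rbp2 the same probe set went from 2012 and 2744 to 3387 and 3185, again without overlap and by a smaller 0.48 ± 0.15 (limma adjusted p = 0.043). The other bright Hmgcs1 probe sets, 3 in number, gave 1.33, 1.41 and 1.67 in Rbp2-/- and 0.47, 0.55 and 0.87 in Rbp2f/f, so all of them had the larger value in the null cells.

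Idi1, the isomerase that interconverts the isoprenoid building blocks (probe set 1451122_at), read 581 and 547 in Rbp2-/- with LIF and 1044 and 1001 without, a rise of 0.84 ± 0.19 (limma adjusted p = 0.017). In Rbp2f/f it read 780.1 and 1047 with LIF and 860.5 and 695 without, so that the arrays overlapped and the difference was -0.22 ± 0.19 (limma adjusted p = 0.41). A second Idi1 probe set gave 0.81 in Rbp2-/- and -0.54 in Rbp2f/f, with arrays apart in both. With all probe sets above the filter tested singly, it passed as a rise in Rbp2-/- (limma adjusted p = 0.017). In Rbp2f/f it passed narrowly as a fall (limma adjusted p = 0.048). Idi1 thus read lowest in the null cells with LIF on both probe sets.

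The remaining mevalonate enzymes did not pass in either genotype. Fdps, which makes farnesyl diphosphate, read 1148 and 1018 with LIF and 2427 and 2115 without in Rbp2-/-, a difference of 1.06 ± 0.34 (limma adjusted p = 0.066). In Rbp2f/f with LIF its replicates stood far apart, at 628 and 1597, and without LIF they read 1681 and 1484. Pmvk, the phosphomevalonate kinase, and Mvd, the decarboxylase after it, were at 0.21 ± 0.22 and 0.48 ± 0.20 in Rbp2-/- and at -0.63 ± 0.22 and -0.29 ± 0.20 in Rbp2f/f. Both had arrays that moved apart in opposite directions in the 2 genotypes, for Mvd on its brightest probe set only. The other Mvd probe set overlapped in Rbp2-/-, at 0.08. Mvk, the kinase before them, was at 0.02 ± 0.23 in Rbp2-/- and 0.33 ± 0.23 in Rbp2f/f.

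In the branch from squalene to cholesterol, Cyp51, the lanosterol demethylase (probe set 1450646_at), had the largest difference of the 29 genes over the 5 comparisons when each gene is read on its brightest probe set. Dimmer probe sets of Scd2 and Lss had larger values, 2.17 in Rbp2f/f and 1.73 in Rbp2-/-. It read 189 and 116 in Rbp2-/- with LIF and 520.0 and 523 without, a rise of 1.71 ± 0.27 or 3.27-fold (limma adjusted p = 0.0039). In Rbp2f/f it read 169 and 282 with LIF and 387 and 355 without, which did not overlap but did not pass, at 0.72 ± 0.27 (limma adjusted p = 0.076). The second Cyp51 probe set above the filter gave 1.05 and 0.50.

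Sqle, squalene epoxidase (probe set 1415993_at), read 456 and 389 in Rbp2-/- with LIF and 711 and 695 without, a rise of 0.72 ± 0.19 (limma adjusted p = 0.036). In Rbp2f/f its arrays overlapped, at 502 and 709.6 against 584 and 577. Dhcr7, the reductase of the final step to cholesterol (probe set 1448619_at), read 362 and 244 against 644 and 515.5 in Rbp2-/-, a rise of 0.92 ± 0.25 (limma adjusted p = 0.038). Its Rbp2f/f arrays also overlapped, at 272 and 383 with LIF and 393 and 309 without. For Sqle and Dhcr7, as for Idi1, no upward separation of arrays was seen in Rbp2f/f.

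Msmo1 and Nsdhl encode enzymes that strip methyl groups from the sterol ring, and Sc5d the desaturase that acts later. Msmo1 (probe set 1423078_a_at) read 472 and 513 in Rbp2-/- with LIF and 1268 and 1325 without, a rise of 1.37 ± 0.36 (limma adjusted p = 0.032). In Rbp2f/f it read 299 and 819.7 against 918.5 and 910.3, with a wide gap between the replicates with LIF and a difference of 0.86 ± 0.36 that did not pass (limma adjusted p = 0.10). Nsdhl (probe set 1416222_at) rose in both genotypes, from 203 and 250.4 to 452 and 438 in Rbp2-/- and from 125.5 and 237 to 383 and 428 in Rbp2f/f. Its differences were 0.93 ± 0.26 (limma adjusted p = 0.041) and 1.15 ± 0.26 (limma adjusted p = 0.012), the larger here in the cells with intact Rbp2. Sc5d, on its brightest probe set (1451457_at), rose by almost the same amount in both. It went from 163 and 161.5 to 423 and 355 in Rbp2-/- and from 100 and 199 to 357 and 310.3 in Rbp2f/f. The values were 1.18 ± 0.27 (limma adjusted p = 0.019) and 1.14 ± 0.27 (limma adjusted p = 0.015). Its other probe sets above the filter did not show equal rises, at 0.69 and 1.31 in Rbp2-/- and 0.03 and 0.5 in Rbp2f/f.

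Hsd17b7, a sterol ketoreductase, passed in Rbp2f/f and not in Rbp2-/-, with an interaction of -0.86 ± 0.44 (limma adjusted p = 0.50). It rose in Rbp2f/f, from 95.3 and 59.5 to 179 and 255 (1.33 ± 0.31, limma adjusted p = 0.015), and in Rbp2-/- its arrays overlapped, at 52.5 and 98.2 against 87.7 and 127 (0.46 ± 0.31, limma adjusted p = 0.35). Its brightest probe set, 1457248_x_at, is of the x type, which by the manufacturer's naming can cross-hybridise. The other Hsd17b7 probe sets above the filter, a pair, gave 0.91 and 1.04 with intact Rbp2 and 0.23 and -0.05 in the null cells. Of the rest of this branch, Fdft1 (squalene synthase) was at 0.51 ± 0.23 in Rbp2-/-, Lss (lanosterol synthase) at 0.80 ± 0.25 and Tm7sf2 (a sterol reductase) at 0.62 ± 0.22, none passing on the brightest probe set although the arrays of each stood apart. With all probe sets above the filter tested singly, a dimmer Lss probe set passed, at 1.73 in Rbp2-/- (limma adjusted p = 0.0097). Another Lss probe set did not, at 0.4 (limma adjusted p = 0.38). Ebp, a sterol isomerase, was at -0.06 ± 0.18 and was the sole sterol arm gene below 0 there.

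**Figure D2:**
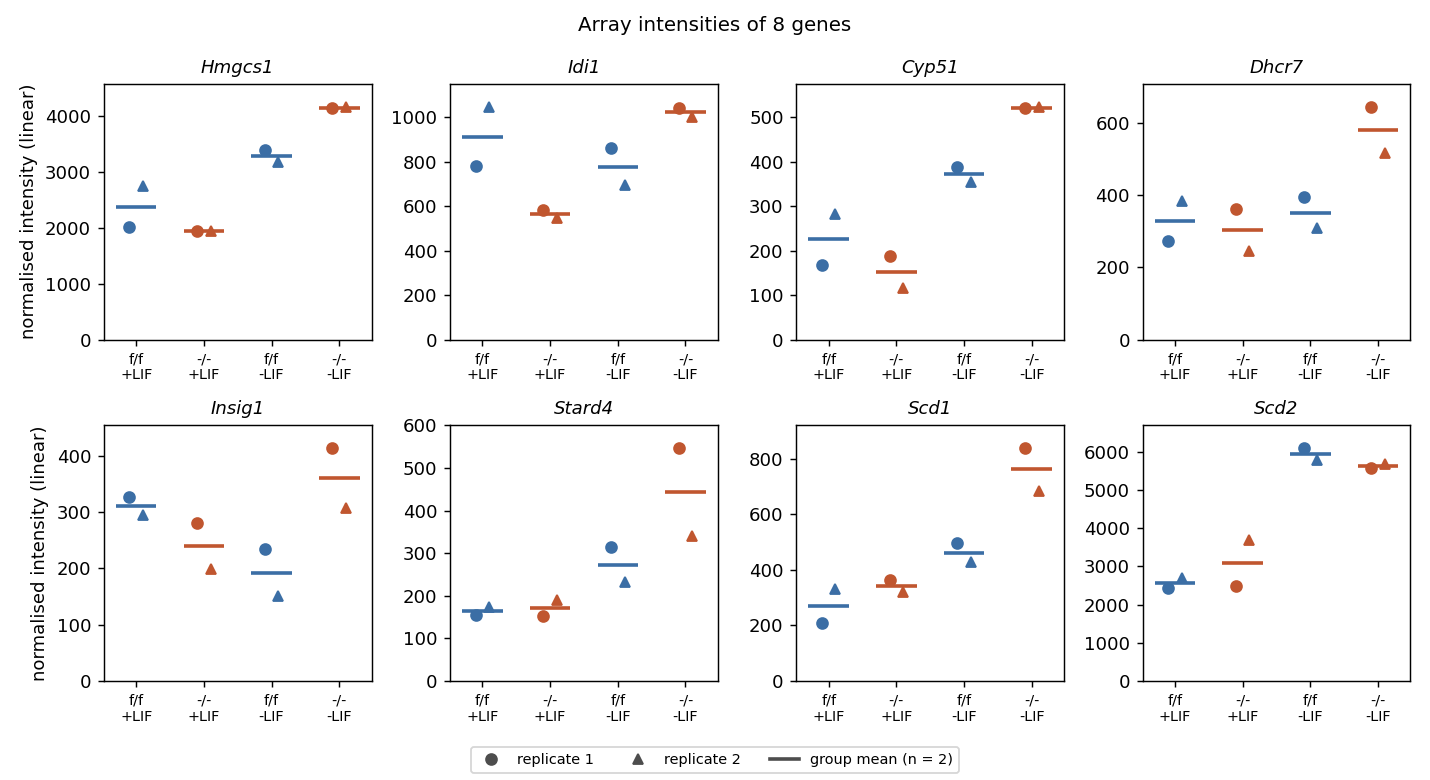
Normalised intensity (linear axis from 0) of 8 of the genes in the 4 groups, blue for Rbp2f/f and red-brown for Rbp2-/-; circles are replicate 1, triangles replicate 2 and bars the mean of 2 arrays. Hmgcs1, Cyp51, Dhcr7, Stard4 and Scd1 are highest in both Rbp2-/- arrays without LIF, Idi1 is lowest in Rbp2-/- with LIF, Insig1 is lower without LIF in Rbp2f/f and higher in Rbp2-/-, and Scd2 is high without LIF in both genotypes.

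Withdrawal of LIF from Rbp2f/f cells gave fewer calls among these genes. Of the 29 genes, each read on its brightest probe set, 6 rose and 0 fell. Among all genes tested 14% rose and 13.2% fell, so the count that rose was not far above the background. Arrays lay wholly above for 13 and wholly below for 4 (Pmvk, Mvd, Insig1 and Acaca), where 33.3% and 35.3% of all genes did so. In the sterol arm 4 of 17 rose, Hmgcs1, Nsdhl, Hsd17b7 and Sc5d, with an arm median of 0.38 against -0.02 for all genes. Between the genotypes 5 genes rose in both, Hmgcs1, Nsdhl, Sc5d, Scd1 and Scd2, and 12 rose in at least one. Across the 29 genes the withdrawal differences of the genotypes, which share no arrays, correlated at 0.52, against 0.74 across all tested genes. Genes are not independent replicates, so these correlations are descriptions.

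These counts depended on single arrays. In Rbp2-/- the 11 calls became 5 without replicate 1 and 6 without replicate 2 of the group with LIF, 2 without replicate 1 and 5 without replicate 2 of the group lacking LIF, and 7 without either Rbp2f/f array lacking LIF, which enter through the shared estimate of spread. Hmgcs1 and Cyp51 passed in each of the 8 fits that left out an array and under all 21 alternatives, whereas Sqle and Dhcr7 passed under 10 of them, Nsdhl under 11 and Msmo1 under 12. In Rbp2f/f the 6 calls became 2 without replicate 1 and 10 without replicate 2 of the group with LIF, and 2 and 1 without replicates 1 and 2 of the group lacking LIF, with Scd2 alone called in every case. Of the Rbp2f/f calls, Hmgcs1 passed under 9 and Scd1 under 12 of the 21 alternatives, and neither did on the values as deposited. With the dim array and the array of the higher Gapdh ratio left out together, an alternative added after the data were seen, 12 rose in Rbp2-/-, and in Rbp2f/f 3 rose and Pmvk fell. Dhcr7 then no longer passed in Rbp2-/- (0.64 ± 0.23), nor Hmgcs1 (0.26 ± 0.11), Sc5d (0.69 ± 0.21) or Scd1 (0.45 ± 0.20) in Rbp2f/f. On the values as deposited 19 rose in Rbp2-/- and 4 in Rbp2f/f, where 19.7% and 13.4% of all genes rose, and the share of all calls that were rises went from 46.9% to 85.5% in Rbp2-/- and from 51.5% to 65.8% in Rbp2f/f.

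Replicate 1 of Rbp2f/f with LIF read lower than replicate 2 for 14 of the 17 sterol arm genes, with a median difference of -0.49 on the log2 scale, while 44.9% of all genes were lower in it. It is also the array with the higher Gapdh ratio, and the part of that in the gap was not tested. Without it the sterol arm median on withdrawal in Rbp2f/f was 0.16 in place of 0.38. In the other groups 5, 7 and 6 of the 17 genes were lower in replicate 1, with medians of 0.09 in Rbp2-/- with LIF, 0.02 in Rbp2f/f without LIF and 0.06 in Rbp2-/- without LIF.

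**Figure D3:**
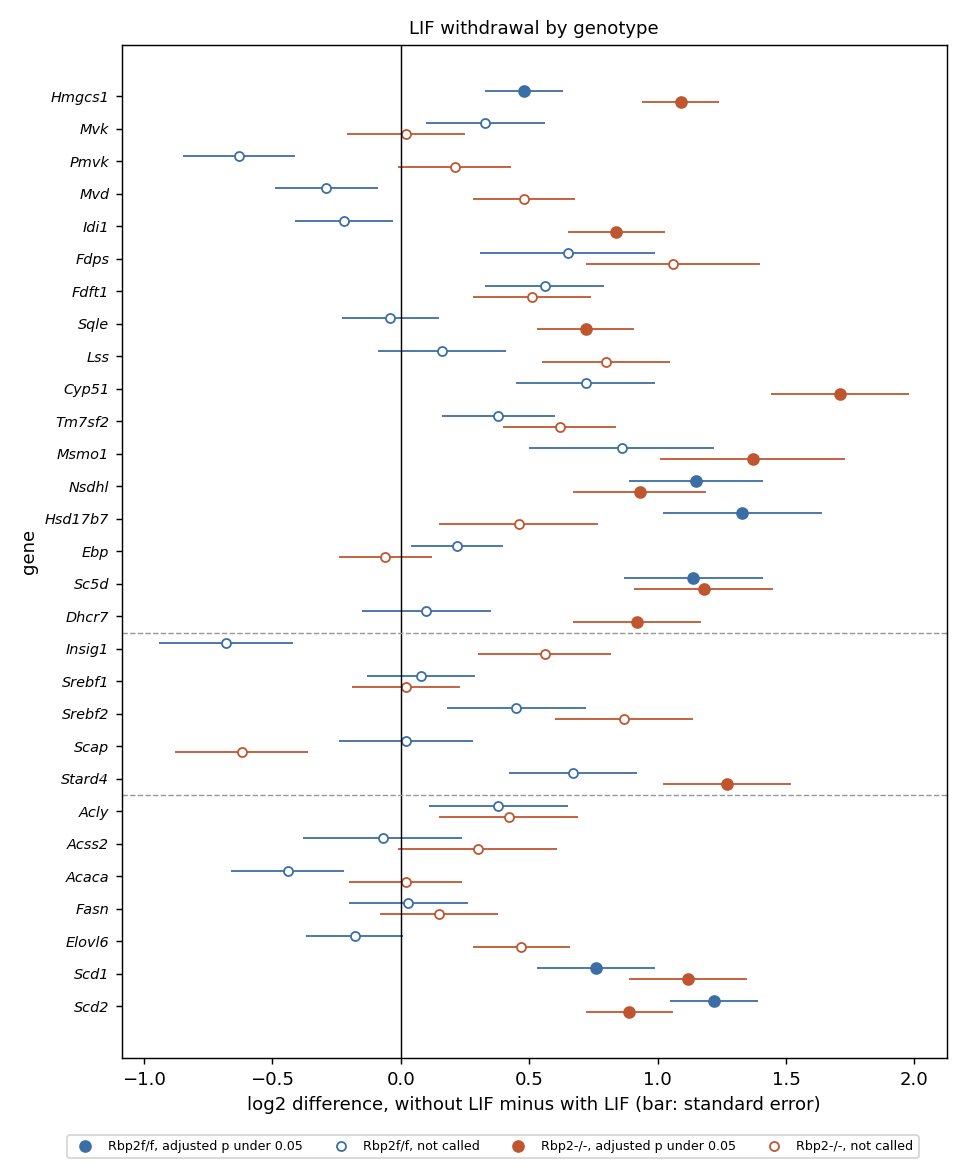
Log2 difference between cells without and with LIF for each of the 29 genes, blue for Rbp2f/f and red-brown for Rbp2-/-, with bars of 1 standard error; filled points passed limma's adjusted p under 0.05, and dashed lines part the sterol arm (top), control and transport genes and fatty acid arm (bottom). In 12 of the 17 sterol arm genes and 6 of the 7 fatty acid arm genes the red-brown point lies to the right of the blue one.

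The difference between the genotypes' withdrawal responses was tested directly as an interaction, and no gene passed, among the 29 or among all 10916 genes tested (0 called, 0%, with 1215 genes or 11.1% at an unadjusted p under 0.05). At that unadjusted level stood 9 of the 29 genes, 7 of them in the sterol arm. The interaction was above 0 for 21 of 29, as for 50.5% of all genes. Its median was 0.51 in the sterol arm and 0.35 in the fatty acid arm, and both depended on single arrays. The sterol median was 0.83 and 0.17 without replicates 1 and 2 of Rbp2f/f with LIF, and the fatty acid median 0.37 and 0.05. Without replicates 1 and 2 of Rbp2-/- with LIF the sterol median was 0.5 and 0.43, and the fatty acid median 0.44 and -0.04. The interaction was 1.06 ± 0.26 for Idi1 (limma adjusted p = 0.34) and 1.24 ± 0.36 for Insig1 (limma adjusted p = 0.38). The larger rise in Rbp2-/- cells was therefore not shown to differ from that in Rbp2f/f cells for any single gene.

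The genes that sense and regulate sterols did not move as a block. Insig1, which retains the SCAP and SREBP complex in the endoplasmic reticulum and is itself an SREBP target (probe set 1454671_at), read 327 and 294 with LIF and 234 and 150.5 without in Rbp2f/f, and 280 and 199 against 414 and 307 in Rbp2-/-. The arrays stood apart in opposite directions, at -0.68 ± 0.26 (limma adjusted p = 0.079) and 0.56 ± 0.26 (limma adjusted p = 0.17), neither passing. Insig1, Pmvk and Mvd were, on the brightest probe sets, the 3 genes, 10.3% of the 29, with this opposite separation, which 3.65% of all tested genes showed. The list depended on the probe set. The other Mvd probe set overlapped in Rbp2-/-, at 0.08, while the other Idi1 and Acaca probe sets above the filter separated in opposite directions. That of Idi1 was at -0.54 in Rbp2f/f and 0.81 in Rbp2-/-, and that of Acaca at -0.5 and 0.12.

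Srebf2, which encodes SREBP2, read 391.5 and 427 with LIF and 763 and 757 without in Rbp2-/-, a difference of 0.87 ± 0.27 that did not pass (limma adjusted p = 0.058), and its second probe set gave 1.04. In Rbp2f/f it was at 0.45 ± 0.27, with replicates of 290.3 and 571 with LIF. Srebf1 was at 0.02 ± 0.21 in Rbp2-/- and 0.08 ± 0.21 in Rbp2f/f, the arrays overlapping in both. Scap, the escort, read 176 and 264.5 with LIF against 117 and 155 without in Rbp2-/- (-0.62 ± 0.26, limma adjusted p = 0.14), the sole gene of the 29 whose arrays separated downward there. Stard4, a soluble sterol carrier (probe set 1429240_at), rose in Rbp2-/- from 152 and 190.3 to 546.5 and 339.5, by 1.27 ± 0.25 (limma adjusted p = 0.011). In Rbp2f/f it went from 155 and 174 to 313 and 231.5, at 0.67 ± 0.25 (limma adjusted p = 0.081), and its other probe sets gave 0.77 and 1.47 in Rbp2-/- and 0.19 and 0.71 in Rbp2f/f.

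In the fatty acid arm the desaturases rose and the enzymes that make the chain did not pass. Scd1 and Scd2 encode stearoyl-CoA desaturases, which turn saturated into monounsaturated acyl chains. Scd2 (probe set 1415822_at) rose in both genotypes, from 2423 and 2689 to 6106 and 5793 in Rbp2f/f (1.22 ± 0.17, limma adjusted p = 0.0017) and from 2496 and 3708 to 5578 and 5689 in Rbp2-/- (0.89 ± 0.17, limma adjusted p = 0.0093). Its other probe sets gave 2.17 and 1.51 with intact Rbp2 and 1.37 and 1.5 in the null cells, and on both of them replicate 1 of Rbp2f/f with LIF was the lowest array, at 202 and 52.0. Scd1 (probe set 1415964_at) rose from 209.6 and 332 to 496 and 427 in Rbp2f/f (0.76 ± 0.23, limma adjusted p = 0.036) and from 362 and 321 to 838 and 684.5 in Rbp2-/- (1.12 ± 0.23, limma adjusted p = 0.013). The second Scd1 probe set gave 0.59 in Rbp2-/- and -0.18 in Rbp2f/f, so the probe sets disagreed on the direction in Rbp2f/f.

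The remaining 5 fatty acid genes had differences from -0.44 to 0.38 in Rbp2f/f and from 0.02 to 0.47 in Rbp2-/-. Fasn, the fatty acid synthase, read 1057 and 1173 with LIF against 1363 and 945 without in Rbp2f/f, and 1507 and 990 against 1352 and 1369.8 in Rbp2-/-, overlapping in both. Acaca, the carboxylase that commits acetyl-CoA to fatty acids, was at -0.44 ± 0.22 in Rbp2f/f and 0.02 ± 0.22 in Rbp2-/-. Elovl6, which elongates palmitate, was at -0.18 ± 0.19 and 0.47 ± 0.19, its Rbp2-/- arrays standing apart at 533.5 and 492 against 730.4 and 705.5. Acly and Acss2, which supply cytosolic acetyl-CoA from citrate and acetate to both pathways, stood at 0.38 ± 0.27 and -0.07 ± 0.31 with intact Rbp2 and at 0.42 ± 0.27 and 0.30 ± 0.31 without it.

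Set side by side, the sterol arm had a higher median than the 7 genes of the fatty acid arm in both withdrawal comparisons. In Rbp2-/- the medians were 0.80 and 0.42, with 8 of 17 sterol and 2 of 7 fatty acid genes called, and without the dim array, replicate 2 of Rbp2-/- with LIF, they were 0.65 and 0.02. The fatty acid median was 0.26 when replicate 1 of the null cells lacking LIF was left out. In Rbp2f/f they were 0.38 and 0.03, with 4 of 17 and 2 of 7 called. The Rbp2f/f sterol median was 0.16 and 0.65 without replicates 1 and 2 of the group with LIF, and the fatty acid median ran from -0.19 to 0.29 over the arrays left out, without replicates 1 and 2 of the group lacking LIF. The size of the gap between the arms depended on single arrays, though its sign did not turn when any of them was left out. The difference in Rbp2f/f, 0.36 before the medians were rounded, became 0.07 and 0.62 without replicates 2 and 1 of the group lacking LIF, and 0.21 without replicate 1 of the group with it. In Rbp2-/- the difference of 0.38 became 0.23 and 0.62 without replicates 1 and 2 of the group with LIF. The fatty acid arm is small and rests on 2 desaturases for its calls, so the medians describe the arms and were not tested. The order of the medians in Rbp2f/f also depended on the choice of fatty acid genes. A list of 15 other tested genes of fatty acid synthesis and desaturation, described below, had a median of 0.63 there, above that of the sterol arm. In Rbp2-/- the median of that list was 0.41, below it.

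**Figure D4:**
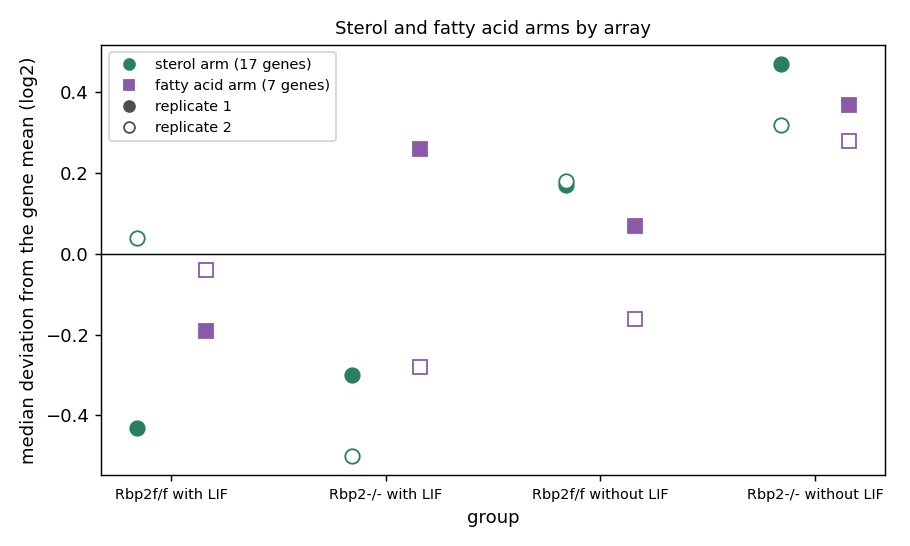
Median over the sterol arm (green circles) and fatty acid arm (purple squares) of each gene's deviation from its mean over 8 arrays, in log2, for every array; filled symbols are replicate 1 and open symbols replicate 2. The sterol arm goes from -0.30 and -0.50 in Rbp2-/- with LIF to 0.47 and 0.32 without, while the fatty acid arm spreads from 0.26 to -0.28 between the Rbp2-/- replicates with LIF.

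In a direct comparison of the genotypes none of the 29 genes passed in either medium, nor did any of the 10916 genes tested (limma, 0% called in both, with 13.1% of all genes at an unadjusted p under 0.05 with LIF and 14.2% without). At that level stood 3 of the 29 with LIF, Pmvk, Idi1 and Sqle, and 7 without, Hsd17b7, Dhcr7, Insig1, Scap, Stard4, Elovl6 and Scd1. With LIF the sterol arm median was -0.11 and the fatty acid median 0.13, against -0.01 for all genes. These rested on single arrays, the sterol median being -0.34 and 0 without replicates 1 and 2 of Rbp2f/f and -0.28 and -0.05 without those of Rbp2-/-. The fatty acid median was 0.04 and 0.21 without replicates 1 and 2 of Rbp2f/f and -0.17 and 0.28 without those of Rbp2-/-, so that its sign turned. On the values as deposited both were below 0, at -0.39 and -0.22, but the median of all genes was then -0.28. Relative to all genes they were -0.11 and 0.06. Without LIF the medians were 0.27 and 0.29, against -0.01 for all genes, and the fatty acid median was 0.52 and 0.11 without replicates 1 and 2 of Rbp2f/f.

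The separation of arrays turned between the media for several genes. With LIF the Rbp2-/- arrays lay wholly below the Rbp2f/f arrays for 7 of the 29 genes, Hmgcs1, Pmvk, Mvd, Idi1, Sqle, Insig1 and Elovl6, and wholly above for 0, where 21.5% and 18.6% of all tested genes did so. Without LIF they lay wholly above for 18 and below for 5, where 26.1% and 29.2% of all genes did so. Of the 7 genes below with LIF, 6 lay above without it, all except Pmvk, which is 20.7% of the 29 genes. Of all tested genes 4.15% turned in this way, 453 of the 2349 that lay below with LIF. These counts were read on the brightest probe sets, and the others above the filter bore out the turn only in part. The other Idi1 probe set turned as well. Those of Mvd and Elovl6 overlapped with LIF, at -0.17 and -0.03. Of the other bright Hmgcs1 probe sets, the one at -0.57 with LIF turned, and those at -0.5 and -0.21 overlapped there. Sqle and Insig1 had no other probe set. With LIF Pmvk read 202 and 271 in Rbp2f/f, far above 124 and 122.5 in Rbp2-/- (-0.84 ± 0.22, limma adjusted p = 0.18), and without LIF it read 125 and 169, overlapping 159 and 133. The 5 genes below without LIF were Mvk, Hsd17b7, Ebp, Scap and Scd2, with Hsd17b7 at -0.91 ± 0.31 (limma adjusted p = 0.24) and Scap at -0.72 ± 0.26 (limma adjusted p = 0.26). For Mvk and Scd2 this held on the brightest probe set only. The other Mvk probe set lay wholly above, at 91.2 and 87.2 in Rbp2-/- against 78.6 and 82.5. Both other Scd2 probe sets also lay wholly above, with differences of 0.40 and 0.91. The other Hsd17b7 probe sets above the filter lay below, at -0.41 and -0.55. On the brightest probe sets the largest difference above was that of Insig1, at 0.87 ± 0.26 (limma adjusted p = 0.18), followed by Dhcr7 and Scd1, at 0.70 ± 0.25 and 0.70 ± 0.23.

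Because several sterol genes rose together, the sequence just before their start sites was examined for 4 motifs, on both strands, in the 250 bases upstream of each RefSeq start (build GRCm38.p6). The table held a promoter for 23 of the 29 genes. The classical sterol regulatory element, searched in its full length, was in 0 of the 23 and in 0.0814% of all 27025 genes. Its shorter and looser form TCACNCCAC, which the full element contains, was found in Hmgcs1 alone, beginning 137 bases before the start, and in 1.22% of all genes. CCAAT, the box read by NF-Y, a usual partner of SREBPs, was in 19 of the 23 genes, 14 of 14 in the sterol arm and 2 of 5 in the fatty acid arm, and in 37.5% of all genes. The E-box CACGTG was in 5 of the 23, Dhcr7, Hsd17b7, Insig1, Sc5d and Scap, and in 6.86% of all genes. No match of CCAAT shared bases with a match of another motif in these genes. A match is a description of these letters, not of binding.

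The stretches just before the start are shown for the 7 sterol genes that rose in Rbp2-/- and had a promoter in the table, and for Insig1, whose arrays separated in opposite directions in the genotypes. Sequences are RefSeq's, on GRCm38.p6, and for Dhcr7, which has more than 1 start there, the start with matches near it is shown. Each runs 5' to 3' toward the start on the gene's strand, and capitals mark CCAAT or its complement ATTGG, the TCACNCCAC match of Hmgcs1, and CACGTG.
Hmgcs1, chr13:119690171-119690350, plus strand: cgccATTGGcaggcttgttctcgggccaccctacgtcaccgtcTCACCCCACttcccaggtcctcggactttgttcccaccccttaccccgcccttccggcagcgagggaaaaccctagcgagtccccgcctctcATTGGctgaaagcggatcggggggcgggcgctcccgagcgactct
Idi1, chr13:8885486-8885605, plus strand: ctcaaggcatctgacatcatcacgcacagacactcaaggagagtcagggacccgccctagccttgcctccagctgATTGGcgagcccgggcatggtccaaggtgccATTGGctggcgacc
Cyp51, chr5:4104698-4104817, minus strand: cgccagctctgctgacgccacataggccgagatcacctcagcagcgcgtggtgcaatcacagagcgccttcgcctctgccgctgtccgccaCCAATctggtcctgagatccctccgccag
Msmo1, chr8:64733579-64733698, minus strand: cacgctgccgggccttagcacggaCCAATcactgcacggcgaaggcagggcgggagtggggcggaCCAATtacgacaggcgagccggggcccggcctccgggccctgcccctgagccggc
Nsdhl, chrX:72918401-72918520, plus strand: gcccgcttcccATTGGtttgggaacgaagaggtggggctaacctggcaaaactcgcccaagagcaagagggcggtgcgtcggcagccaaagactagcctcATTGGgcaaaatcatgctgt
Sc5d, chr9:42264301-42264420, minus strand: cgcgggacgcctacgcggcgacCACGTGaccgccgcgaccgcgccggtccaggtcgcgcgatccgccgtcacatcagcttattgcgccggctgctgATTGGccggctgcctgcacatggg
Dhcr7, chr7:143830094-143830213, plus strand: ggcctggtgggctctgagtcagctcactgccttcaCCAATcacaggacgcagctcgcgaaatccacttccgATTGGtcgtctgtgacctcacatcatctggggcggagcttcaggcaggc
Insig1, chr5:28071292-28071411, plus strand: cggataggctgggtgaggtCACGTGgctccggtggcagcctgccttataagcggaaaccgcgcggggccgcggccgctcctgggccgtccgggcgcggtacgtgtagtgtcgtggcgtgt

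The stretches, including the longer one of Hmgcs1 and the start used for Dhcr7, were chosen to hold matches, so only the counts over whole windows above describe how often they occur. The stretch of Insig1 holds an E-box and no CCAAT, its CCAAT match lying 216 bases before the start.

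Where a gene had more than 1 probe set, the agreement of the others with the brightest was counted. There were 25 other probe sets above the intensity filter, from 16 genes. In Rbp2-/- 23 of the 25 had the sign of the brightest on withdrawal, the exceptions lying in Fdft1 and Hsd17b7. In Rbp2f/f 20 of 25 did, the exceptions lying in Fdft1, Lss, Acly and Scd1. The probe sets below the filter, 13 in number, were not read.

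Neighbouring pathways were described from lists of genes, to be read against the 14% of all tested genes that rose and 13.2% that fell in Rbp2f/f, and 7.27% and 8.24% in Rbp2-/-. SREBP processing genes (the proteases Mbtps1 and Mbtps2 and partners) had 0 of 5 called in either genotype, with medians of 0.30 in Rbp2f/f and 0.39 in Rbp2-/-. Of 9 genes of the isoprenoid branches, Fntb, a farnesyltransferase subunit, fell in both genotypes (-0.81 ± 0.19, limma adjusted p = 0.014, and -1.44 ± 0.19, limma adjusted p = 0.0015), and Pggt1b, of another protein prenyltransferase, rose in Rbp2f/f by 0.67 ± 0.21 (limma adjusted p = 0.038). Of 9 genes for sterol export, storage and transport, 4 rose and 1 fell in Rbp2f/f and 1 rose and 1 fell in Rbp2-/-, the latter counts near the shares of all genes. Npc2, the lysosomal cholesterol-binding protein, rose in both, by 1.42 ± 0.19 (limma adjusted p = 0.0013) and 1.21 ± 0.19 (limma adjusted p = 0.0035). Osbp, an oxysterol-binding protein, rose in Rbp2f/f by 0.98 ± 0.25 (limma adjusted p = 0.020), and Abcg1, a sterol exporter, fell in both, at -0.97 ± 0.23 (limma adjusted p = 0.015) and -1.27 ± 0.23 (limma adjusted p = 0.0075).

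Other fatty acid synthesis and desaturation genes, 15 tested, gave 5 higher and 2 lower in Rbp2f/f, where 14% and 13.2% of all genes were so called, and 5 higher and 1 lower in Rbp2-/-, where 7.27% and 8.24% were. The counts of lower genes were near those shares. Acsl3, an acyl-CoA synthetase, rose by 1.24 ± 0.21 and 1.44 ± 0.21 (limma adjusted p = 0.0039 and 0.0025), and Elovl1, an elongase, by 1.71 ± 0.19 and 0.83 ± 0.19 (limma adjusted p = 0.00066 and 0.020). Acacb, the mitochondrial acetyl-CoA carboxylase, is the lower call in Rbp2-/- and 1 of those in Rbp2f/f, but it passed the intensity filter of 28.3 through its arrays with LIF. It read 44.6, 92.4, 81.7 and 56.2 there and 3.8, 14.0, 15.0 and 4.9 without LIF, too dim for a size of the change. Acsl4, a synthetase that favours arachidonate, fell in Rbp2f/f (-1.33 ± 0.18, limma adjusted p = 0.0014). Me1, the malic enzyme that supplies NADPH, rose in Rbp2-/- by 1.09 ± 0.22 (limma adjusted p = 0.011). Fatty acid oxidation genes, 15 tested, gave 2 higher and 0 lower in Rbp2f/f, and 1 higher and 2 lower in Rbp2-/-, all near the shares of all genes. The lower genes there were Cpt1a and Slc25a20, which carry fatty acids into mitochondria (-1.37 ± 0.25, limma adjusted p = 0.0075, and -1.43 ± 0.34, limma adjusted p = 0.023), while Decr1, an auxiliary oxidation enzyme, rose in both genotypes, by 0.67 ± 0.21 in Rbp2f/f (limma adjusted p = 0.041) and 1.21 ± 0.21 in Rbp2-/- (limma adjusted p = 0.0055). Etfdh, which passes electrons from oxidation to the respiratory chain, rose in Rbp2f/f by 0.80 ± 0.20 (limma adjusted p = 0.017).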

How the data were processed

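The deposited table holds intensities per probe set, summarised by the authors from arrays of the Affymetrix mouse 430 2.0 type, linear and not centred; how they were summarised, background-corrected and scaled is not given in the sources used here. Per the labels' protocols, RNA was column-purified with DNase digestion and biotin-labelled from 6 ug. The number of arrays limits the precision. The manufacturer's 64 control probe sets were left out, all 8 arrays were quantile normalised and log2(value + 16) was taken. Each gene was its probe set with the highest mean (34958 probe sets had 1 symbol, 932 several and 9211 none, and several-gene probe sets were not used); genes at or above the 40th percentile of mean intensity were tested, 10916 in all, including all 29 here. limma 3.58.1 in R 4.3.3 fitted 4 group means over 8 arrays, with a mean-variance trend, 4 residual and 5.3 prior degrees of freedom, and Benjamini-Hochberg adjustment over all genes of each of 5 contrasts; calls are genes with adjusted p below 0.05. The fit was tested on simulated data. The genes, arms and lists were chosen with earlier results of these data known. Genes called in a contrast are given by array and the rest by values or ranges, with Insig1, Fdps, Pmvk, Srebf2, Scap, Fasn and Elovl6 also by array, chosen after their values were seen; in the other lists, called genes, up to 3 per list and contrast by p, are named. Alternatives covered normalization, pseudocount, filter, variance model, array weights, probe set summary, threshold, replicate block and leaving out arrays.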

Additional observations from a re-analysis of the deposited data

How the results depend on the processing

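For the counts of called genes and the differences between arm medians, 173 of 193 recomputed values stayed within 1.5 times the count, or within the replicate SD of 0.19 of the arm difference, which settings that alter only the test cannot move. The 173 include the counts for both genotype comparisons and the interaction, which were 0 throughout. They also include arm differences over all measured genes, which are the main values again. The share therefore does not describe how well the withdrawal counts held. None of the 17 called changes turned sign, but 91 of the 399 values recomputed for single genes lost their call. The 399 include 21 values each for the Idi1 and Insig1 interactions, which were not called and so had no call to lose. The count in Rbp2-/- on withdrawal, 11, was 19 on values as deposited, 7 without a filter and 3 at an adjusted p threshold of 0.01. The count in Rbp2f/f, 6, was 3 with the mean of all probe sets of a gene and 1 at that threshold. Leaving out each array gave 2 to 14 in Rbp2-/- and 1 to 10 in Rbp2f/f. The sterol minus fatty acid median then ranged from 0.23 to 0.62 on withdrawal in Rbp2-/-, 0.07 to 0.62 in Rbp2f/f, -0.21 to 0.13 between genotypes without LIF and -0.38 to -0.11 with LIF, and it was 0.61 in Rbp2-/- with both the dim array and the array of the higher Gapdh ratio left out. Both genotype comparisons and the interaction gave 0 of the 29 genes under every alternative. The cause of these shifts was not tested, beyond the fewer arrays or other threshold that define them. Same-numbered replicates deviated together with correlations of 0.25 to 0.27 among Rbp2-/- with LIF and both groups lacking LIF. Between Rbp2f/f with LIF and the other groups the correlations were -0.07 to 0. As the shared deviation did not extend to every group, the numbers were not taken to pair the samples. With the replicate block the counts were 12 in Rbp2-/-, adding Srebf2, and 7 in Rbp2f/f, adding Insig1 as lower. Dim probe sets have little signal over background, so their differences are understated.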
